A study of Homo sapiens with 8 samples.

Results

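The 36 interferon-stimulated genes described here span ISG15, the IFIT, OAS, IFITM and MX families, cytosolic RNA sensors and the transcription factors of the response. They were chosen by symbol and matched through their Ensembl identifiers to 36 of the 60483 genes in the table of counts. RNA was sequenced from SW1990, an established line of pancreatic ductal cancer, in a control and a CRISPR knockdown (KD) of PAF1, a subunit of the PAF1 complex that travels with RNA polymerase II. By their titles, all samples are side population cells, which are sorted for pumping out a DNA-binding dye. Each group had 2 libraries of 2 lanes each, and the libraries labelled PAF1 knockdown are called KD-labelled. The sample titles name PAF1, but the names of the count columns do not. Columns whose names hold PD2, a synonym of PAF1 in the RefSeq gene table, were assigned to the knockdown. Columns without PD2 were assigned to the control. Columns were matched to groups in this way, and not to single samples. In each group the column name of 1 library starts with SP and the other does not. The titles abbreviate side population as SP but give it to all samples. The labels thus do not say what sets the prefixed libraries apart. Both SP-prefixed names also contain P3, which neither unprefixed name does, so the prefix and whatever P3 marks cannot be told apart. The word CRISPR is missing from the name of the unprefixed control only. The labels do not say whether the control cells carried Cas9 or a guide, whether the knockdown cells were a clone or a pool, or whether the libraries came from separate cultures. The p-values thus reflect only how these libraries vary, and that variation may be technical.

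Interferons are secreted proteins that bind receptors on the cell surface and activate JAK kinases, which phosphorylate STAT proteins such as STAT2. STAT2 acts with IRF9 in a complex that binds the interferon-stimulated response element in promoters, and IRF family factors bind closely related sequences. The induced genes recognise viral RNA, block viral entry and translation, or feed back on the pathway. Many cancer cell lines keep part of this program on without added interferon. The PAF1 complex has been described as a regulator of the transcription of antiviral genes.

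The response element was looked for as the letters GAAANNGAAA, which read TTTCNNTTTC on the other strand, from 250 bases before to 50 bases after each start site in RefSeq promoter sequences (GRCh38.p14). Matches may overlap each other. Of the 36 genes, 28 had a promoter sequence there, and 18 of these (64.3%) held the motif in at least 1 window. Over all genes with a promoter sequence the motif was in 1195 of 27305 (4.38%), and in 3.57% of the 35116 windows of the same length. The 8 sequences below belong to genes whose counts are followed in the text, and show how the number and spacing of matches varies between families. They run 5′ to 3′ on the strand of the gene, and capitals mark the motif.
IFIT1 (chr10:89392495-89392541, plus strand): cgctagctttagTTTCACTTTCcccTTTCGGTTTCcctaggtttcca
IFIT3 (chr10:89327829-89327896, plus strand): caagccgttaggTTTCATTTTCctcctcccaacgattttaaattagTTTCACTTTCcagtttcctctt
IFIT5 (chr10:89414511-89414585, plus strand): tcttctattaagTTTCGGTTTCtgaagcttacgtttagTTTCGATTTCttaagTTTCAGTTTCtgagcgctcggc
IFI6 (chr1:27672264-27672360, minus strand): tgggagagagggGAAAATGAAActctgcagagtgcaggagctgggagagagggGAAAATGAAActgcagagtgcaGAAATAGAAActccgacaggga
ISG15 (chr1:1013372-1013411, plus strand): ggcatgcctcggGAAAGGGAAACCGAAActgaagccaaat
OAS3 (chr12:112938450-112938483, plus strand): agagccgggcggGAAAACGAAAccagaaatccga
ISG20 (chr15:88638935-88638968, plus strand): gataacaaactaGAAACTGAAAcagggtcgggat
DTX3L (chr3:122564320-122564353, plus strand): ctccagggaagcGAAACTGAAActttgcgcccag

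IFIT5 and IFI6 each held 3 matches in the stretch shown, and IFIT1, IFIT3 and ISG15 held 2. In ISG15 the matches overlap. The 34 bases shown for DTX3L are also the promoter of PARP9, which is transcribed in the opposite direction, so this pair shares its match. CMPK2, IFI16, HERC6, IRF1, RIGI, STAT2, OAS1, IRF9, XAF1 and IFI35 had a window without these letters. No window was given for OAS2, OASL, IFITM2, MX2, DHX58, IRF7, USP18 or IFIT2. A match is a stretch of letters and no measurement of binding.

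Library totals ranged from 17234973 to 22348416 counts, and lanes of 1 library differed by little more than counting noise (chi-square per degree of freedom 1.01 to 1.03). The SP-prefixed control stood furthest from the rest, with a median absolute log2 difference over all genes of 0.24 to 0.28 from each other library. It was 0.23 between the unprefixed control and the SP-prefixed KD-labelled library, 0.16 between the KD-labelled libraries and 0.17 between the unprefixed libraries. PAF1 mRNA did not separate the groups. It had 55.2 CPM (counts scaled to the normalised library size) in the unprefixed control, 43.9 in the SP-prefixed control, and, in the libraries labelled PAF1 knockdown, 41.7 without and 44.4 with the prefix (log2 difference -0.20 ± 0.16, SE, n = 2 per group, adjusted p = 0.659 by edgeR and Benjamini-Hochberg). Counts of RNA do not measure PAF1 protein, so whether the protein was depleted cannot be told from these data. The groups are therefore named by their labels alone. Carcinoma markers were high, with 8 keratin, epithelial and ductal genes summing to between 5582 and 6962 CPM. Markers of other cells summed to far less, though those of fibroblasts and endothelium were not near 0. The 5 leukocyte markers summed to between 0.316 and 0.897 CPM, and the 4 plasmacytoid dendritic cell markers to between 0.0527 and 0.349 CPM with CLEC4C and GZMB at 0. The 4 fibroblast markers summed to between 32.8 and 41.9 CPM, nearly all of it COL1A1 with DCN at 0, the 3 endothelial markers to between 23.7 and 29.8 CPM, and the 3 acinar markers to between 0.105 and 1.45 CPM with CPA1 at 0. In bulk RNA, fewer cells of a kind and less RNA per cell cannot be told apart.

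All 36 genes were expressed in every library; gene positions below are on GRCh38. The lowest count of any of them was 44, each averaged at least 1 CPM, and all 36 were among the 16417 genes that passed the filter on low counts. On a scale corrected for gene length (RPKM, the CPM per kilobase), the median level of the 36 was 6.77, against 4.41 over all genes tested, and 25 of the 36 lay above the latter.

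The highest level per length belonged to IFITM3, a membrane protein that blocks the fusion of viruses with endosomes, at 98.4 to 143 RPKM over the 4 libraries. ISG15, a small ubiquitin-like protein that is attached to other proteins, followed with 77.9 to 113 RPKM. These ranges overlapped each other and lay above all other members. IFITM1, SAMD9, IFI27, IFI6, IFIT3, IFI16, IFITM2, DTX3L and BST2 followed with means of 43.1 down to 16.0 RPKM. A middle stretch from IFIT2, at 13.3, down to OAS2, at 3.51, held 16 members. The lowest were DHX58, USP18, MX2, XAF1, CMPK2, MX1, IFI44L, IRF9 and ISG20, whose means ran from 1.84 down to 0.799 RPKM. Of the 35 neighbouring pairs in this order, 31 had ranges that overlapped. The gaps without overlap came after ISG15, IFITM2, OAS3 and OAS2. The order depends on the deposited exonic length, which was 13047 bases for MX2 and 7363 for ISG20. By mean CPM, MX2 had 21.6 and ISG20 5.88, both above USP18 with 3.79.

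**Figure D1:**
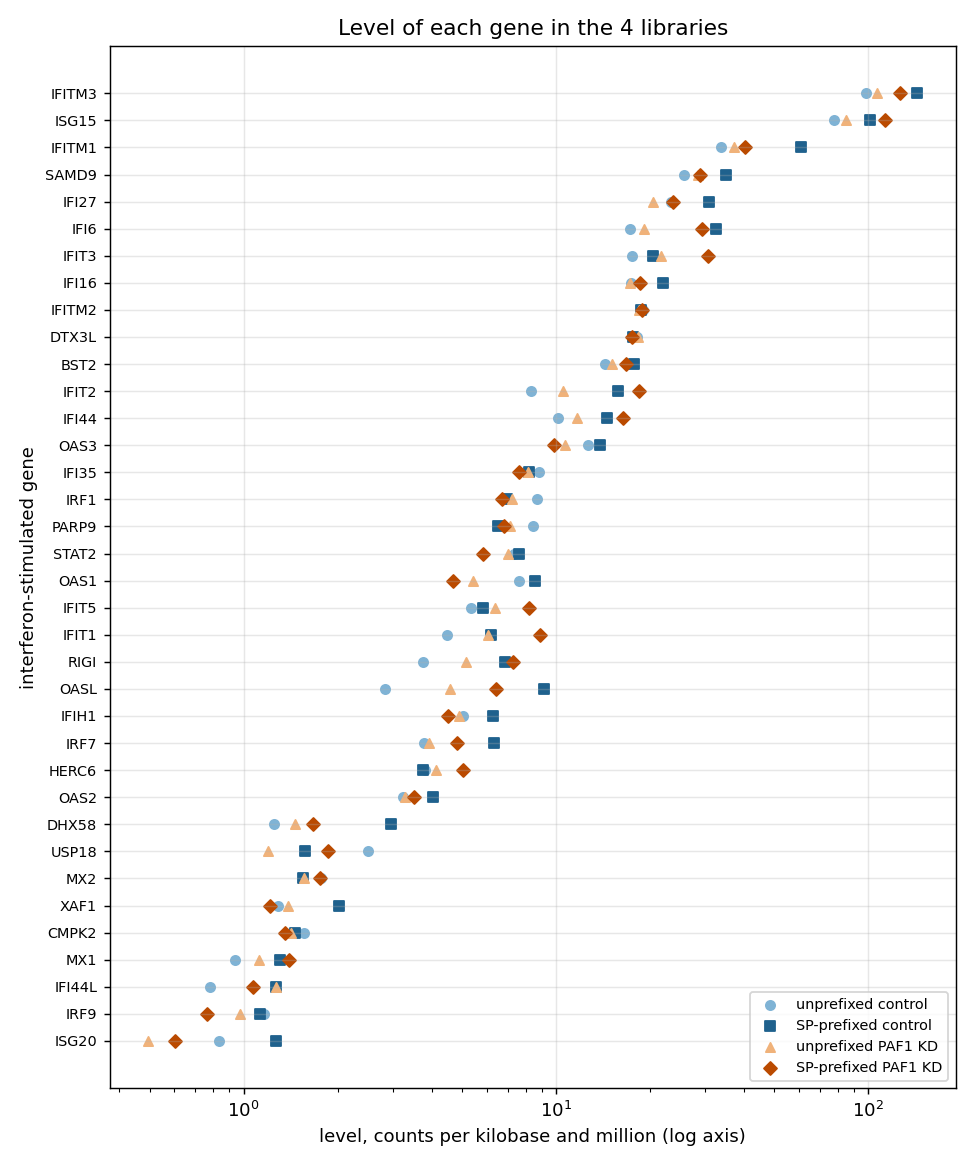
Level of each of the 36 genes in the 4 libraries, in RPKM (CPM per kilobase) on a log axis, ordered by mean. Each point is 1 library; IFITM3 and ISG15 lie to the right of all others, and OASL, ISG20, DHX58, IFIT2 and USP18 have the widest spread between libraries.

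The libraries spread by a median factor of 1.5 between the highest and the lowest for these genes, against 1.39 over all genes tested. In 5 of the 36 the highest library was at least 2 times the lowest, against 17.25% of all genes tested. These were OASL with a factor of 3.22, ISG20 with 2.56, DHX58 with 2.38, IFIT2 with 2.22 and USP18 with 2.09. IFITM2 and DTX3L varied least, with factors of 1.03 and 1.05.

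No interferon-stimulated gene passed the threshold between the libraries labelled PAF1 knockdown and the controls. With edgeR's quasi-likelihood test and no covariate, 0 of 36 had a Benjamini-Hochberg adjusted p of at most 0.05, and neither did any of the 16417 genes (0%). At an unadjusted p under 0.05 there were 4 against 11.2% of all genes. IFIT3 was higher, beside 4.05% of all genes, and OAS1, OAS3 and ISG20 were lower, beside 7.16%. limma-voom also passed 0, and DESeq2 passed OAS1 alone (adjusted p = 0.0457, within 0.0219 to 0.999 over 14 alternative settings), with 1.57% of all genes passing. The count was 0 to 4 when 1 library was left out. It was 4 without the unprefixed control, where ISG20, IFITM1, OAS1 and DHX58 passed as lower and 7.77% of all genes passed. Without the SP-prefixed control it was 0, with 1.23% of all genes passing.

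A term for the prefix, so that each KD-labelled library is set against the control of the same prefix, again passed 0 of the 36, against 1.95% of all genes. The labels do not pair these libraries. At an unadjusted p under 0.05 there were 6, namely IFIT1, IFIT3 and IFIT5 higher and OAS1, OAS3 and ISG20 lower, against 15.5% of all genes. That is 3 of 36 higher beside 5.57% of all genes, and 3 of 36 lower beside 9.89%. DESeq2 and limma-voom passed 0 members in this comparison, where DESeq2 passed 1.32% of all genes. The smallest absolute log2 change that passed over all genes was 0.65, and the median SE of the members was 0.17. Fold changes below carry this prefix term unless stated otherwise.

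The median log2 fold change of the 36 was -0.10 without the prefix term, with 12 above and 24 below 0, against -0.01 over all genes. It was 0.06 for the unprefixed pair, with 21 genes above 0, and -0.13 for the SP-prefixed pair, with 13 above 0. Over all genes tested, 49.7% were above 0 for the unprefixed pair, as were 48.9% for the SP-prefixed pair. The sign differed between the pairs for 16 of the 36 genes, against 37.7% of all genes. Left without the SP-prefixed control, the median was 0.11, with 21 genes above 0, and so on the other side of 0. Both KD-labelled libraries lay above both controls for 3 genes (HERC6, IFIT3 and IFIT5; 22.1% of all genes) and below both for 8 (IFIH1, STAT2, IRF9, OAS1, OAS3, ISG20, CMPK2 and IFI35; 22.6% of all genes).

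**Figure D2:**
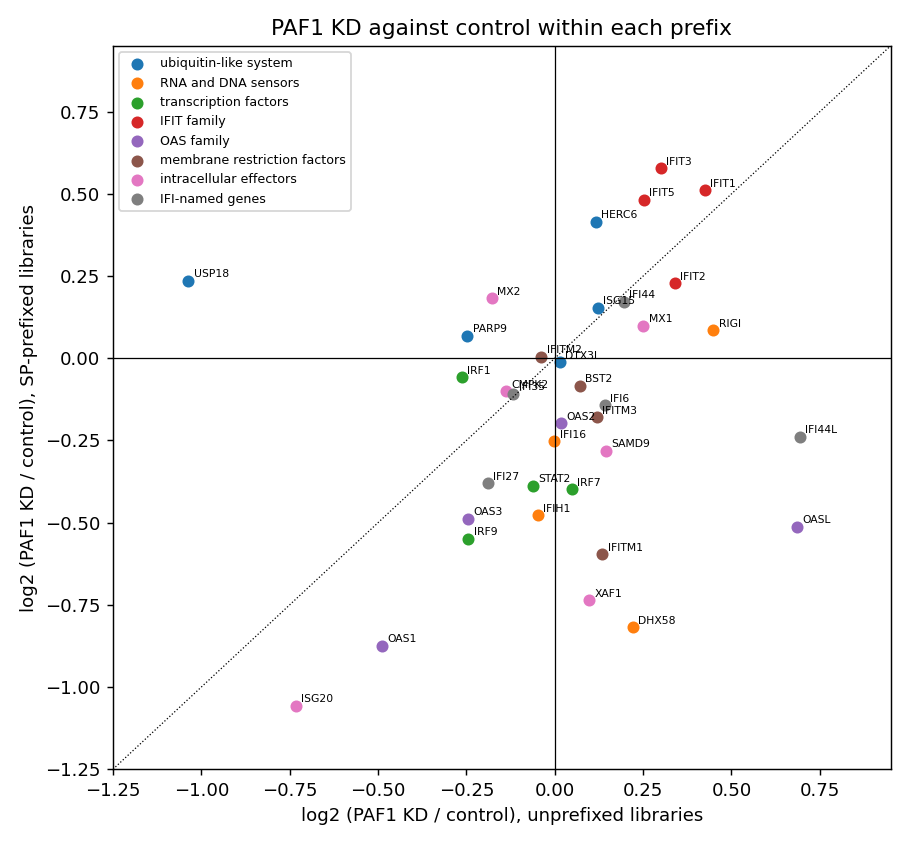
Log2 ratio of the KD-labelled library to the control for each of the 36 genes, in the unprefixed pair (x axis) and the SP-prefixed pair (y axis), from log2 CPM with a prior count of 2; colours give the role and the dotted line marks equal values. The 4 IFIT genes are in the upper right and OAS1, OAS3 and ISG20 in the lower left, while 16 genes lie in quadrants where the pairs have opposite signs.

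Between prefixes, the same fit again passed 0 of the 36, against 0.25% of all genes. The median log2 difference, SP-prefixed minus unprefixed, was 0.23, with 26 of 36 above 0, against -0.01 over all genes. At an unadjusted p under 0.05 there were 13, against 10.7% of all genes. All 13 were higher in the SP-prefixed libraries, beside 5.63% of all genes, and 0 were lower, beside 5.1%. They were ISG15, RIGI, DHX58, IRF7, IFIT1, IFIT2, IFIT3, OASL, IFITM1, IFITM3, IFI6, IFI27 and IFI44. limma-voom passed 0, and DESeq2 passed IFIT2 alone (adjusted p = 0.0143, within 0.00352 to 0.923 over 10 alternative settings) with 0.42% of all genes.

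The median was above 0 within each group. In the controls the median over the 36 was 0.33 with 26 genes above 0, where 48.6% of all genes were above 0. In the KD-labelled libraries, which do not include the SP-prefixed control, it was 0.16 with 24 above 0, where 50.2% of all genes were. Both SP-prefixed libraries lay above both unprefixed ones for 17 of the 36 genes, against 17% of all genes, and below both for 3 (PARP9, DTX3L and IRF1), against 16.6%. The SP-prefixed control held the highest value of 17 genes (31.1% of all genes), the SP-prefixed KD-labelled library that of 9 (26.5%), the unprefixed control that of 8 (24.7%) and the unprefixed KD-labelled library that of 2 (17.7%). The unprefixed control held the lowest value of 18 of the 36, and of 23.3% of all genes. With no residual degree of freedom left, whether the prefix difference itself differs between groups could not be tested.

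**Figure D3:**
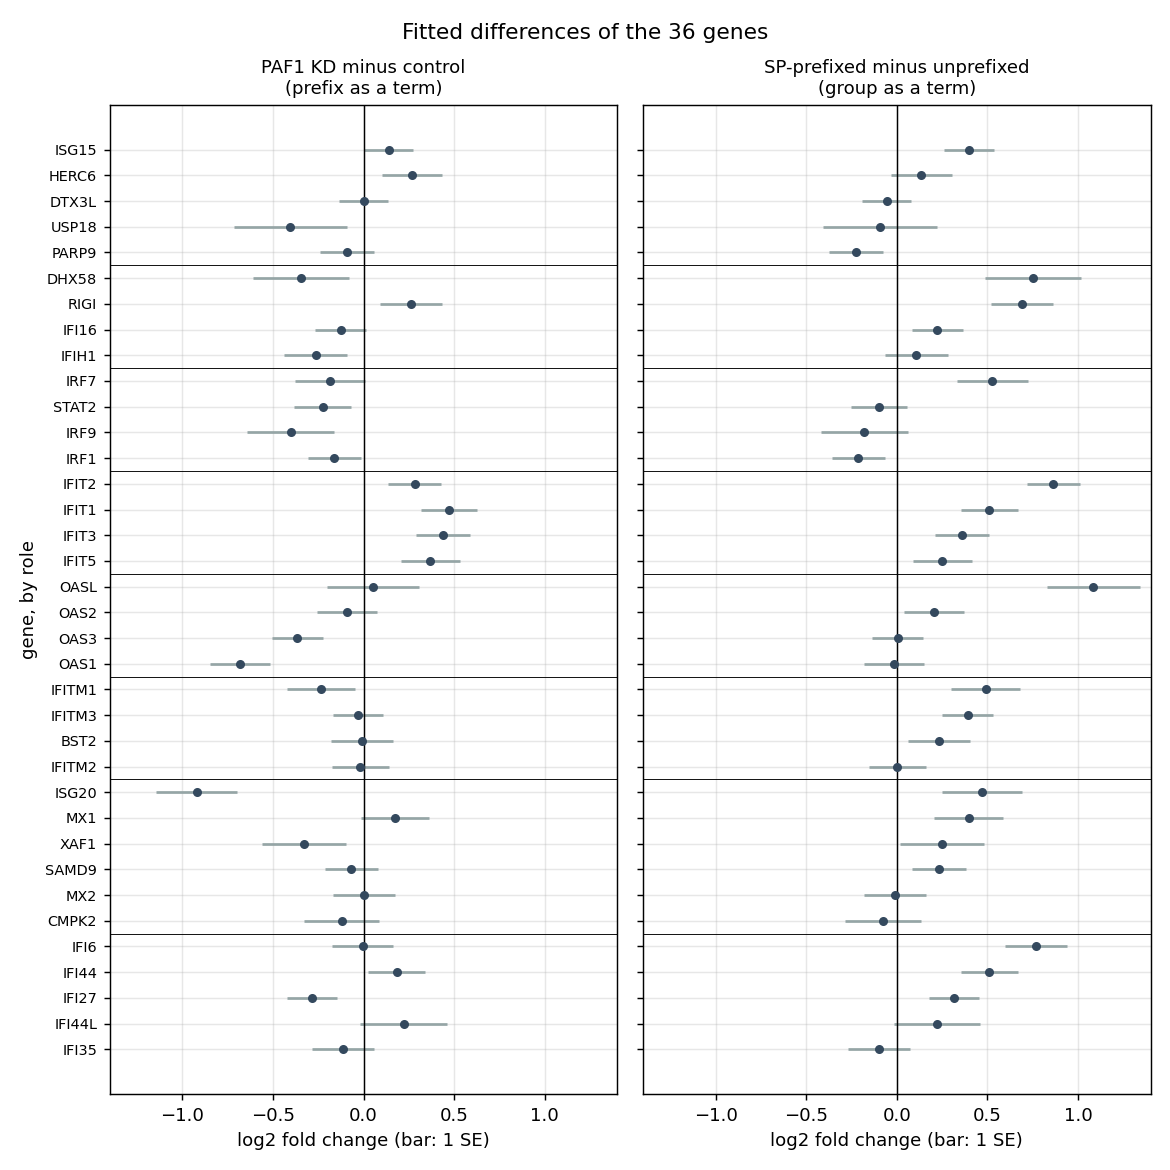
Fitted log2 fold change of each gene between groups (left, prefix as a term) and between prefixes (right, group as a term), with bars of 1 SE, n = 2 libraries a side; genes are ordered by role. On the left the values fall on both sides of 0, and on the right 26 of 36 are above 0.

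Promoters with the motif and without it were set side by side as a description. The 18 genes with the motif had a median prefix difference of 0.34 on the log2 scale, with 16 above 0. The 10 genes whose window lacked it had a median of -0.05, with 4 above 0. Between groups the medians were -0.01 with the motif and -0.14 without it. No test was made of this division, and 8 of the 36 genes had no window. Among these were the largest prefix differences, of OASL (1.08) and IFIT2 (0.86). The rest were DHX58 (0.75), IRF7 (0.53), OAS2 (0.21), IFITM2 (0.003), MX2 (-0.01) and USP18 (-0.09). On which side of the division they belong is not known.

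The list of other interferon-stimulated genes, 50 of which 45 were tested, did not lie to the same side. Its median prefix difference was -0.07, with 18 above and 27 below 0, and 0 passing, against 0.25% of all genes. At an unadjusted p under 0.05, 2 of 45 were higher, beside 5.63% of all genes, and 4 of 45 lower, beside 5.1%. Between groups its median was -0.04 with 0 passing, against 1.95% of all genes. LGALS3BP, a secreted glycoprotein, had 1043 and 1020 CPM in control libraries and 963 and 966 CPM in the KD-labelled libraries, unprefixed first here and in all values below. ADAR, which edits adenosine in RNA, had 484 and 519 CPM against 504 and 522. LY6E, a surface protein that limits the entry of coronaviruses, had 498 and 554 CPM against 379 and 429, a log2 difference of -0.38 ± 0.13 (SE, n = 2 per group, adjusted p = 0.18 by edgeR and Benjamini-Hochberg). DDX60L, a helicase relative, had 171 and 202 CPM against 215 and 230.

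Interferon genes themselves were at or near a count of 0. Of 22 interferon genes, 17 had a count of 0 in all libraries and 4 had 1 to 3 counts in all, with at most 2 in a library. A count of 0 allows up to 0.132 to 0.174 CPM per library, for counting error alone. IFNE, the interferon of epithelia, was the only interferon gene tested, with 2.20 and 1.94 CPM in control libraries and 2.26 and 1.69 CPM in the KD-labelled libraries. These ranges overlap.

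All 6 receptor subunits were expressed and 0 passed, against 1.95% of all genes. The median log2 fold change was -0.29, with 5 of 6 below 0, as were 8411 of the 16417 genes tested. IL10RB, shared by the receptors of interferon lambda and interleukin-10, had 30.2 and 33.4 CPM in control libraries and 23.9 and 22.4 CPM in the KD-labelled libraries (-0.46 ± 0.16, SE, n = 2 per group, adjusted p = 0.203 by edgeR and Benjamini-Hochberg). IFNGR2, the signalling chain for interferon gamma, had 71.6 and 92.0 CPM against 70.3 and 51.3 (-0.43 ± 0.19). Both KD-labelled libraries were below both controls for 5 of the 6 subunits, all but IFNLR1, against 22.6% of all genes. The log2 ratio of IFNGR2 to the control of the same prefix was -0.03 and -0.84, unprefixed first. The ligand-binding chain IFNGR1 had 131 and 123 CPM against 111 and 101, and IFNAR1, a subunit of the type I receptor, had 116 and 116 CPM against 112 and 102.

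Of the 8 JAK and STAT transducers, 0 passed, against 1.95% of all genes. STAT3 had 138 and 150 CPM against 145 and 140, STAT6 had 154 and 136 CPM against 135 and 120, and the kinase JAK1 had 105 and 124 CPM against 112 and 103.

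Among 19 other sensors and adaptors, 15 were tested and 1 passed with the prefix term, against 1.95% of all genes. IRF5, a transcription factor downstream of Toll-like receptors, had 9.92 and 11.4 CPM in control libraries and 4.81 and 3.95 CPM in the KD-labelled libraries. Both KD-labelled libraries were below both controls, and IRF5 fell by 1.28 ± 0.22 on the log2 scale (SE, n = 2 per group, adjusted p = 0.0227 by edgeR and Benjamini-Hochberg with the prefix term and 0.181 without it). MAVS, the mitochondrial adaptor of RNA sensors, had 228 and 216 CPM against 212 and 226. TRIM25, a ubiquitin ligase of the same pathway, had 217 and 203 CPM against 214 and 222, and the kinase RIOK3 had 146 and 201 CPM against 148 and 144. Of 20 inhibitors of the pathway, 19 were tested and 0 passed, against 1.95% of all genes. PTPN11 had 258 and 276 CPM in control libraries against 296 and 304, PTPN1 had 187 and 177 CPM against 203 and 207, both tyrosine phosphatases, and IRF2BP2, a corepressor, had 74.9 and 73.6 CPM against 70.3 and 67.1. TREX1, a DNA exonuclease, is listed at 0. ADAR and IFI16 each stand in more than 1 of these lists.

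The 4 members that sense nucleic acids were all above 0 between prefixes, as were 8014 of the 16417 genes tested. Of the 4, 2 were at an unadjusted p under 0.05 (5.63% of all genes were higher at that level). RIGI, the helicase that binds RNA with a triphosphate end (chromosome 9, 32455705 to 32526324, minus strand), had 16.4 and 30.0 CPM in control libraries and 22.3 and 31.8 CPM in the KD-labelled libraries. Both SP-prefixed libraries were above both unprefixed ones. The prefix difference was 0.69 ± 0.17 (SE, n = 2 per prefix, adjusted p = 0.156 by edgeR and Benjamini-Hochberg) and the group difference 0.26 ± 0.17.

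DHX58, which encodes LGP2, a regulator of the other RNA helicases, had 4.80 and 11.4 CPM against 5.62 and 6.43. The SP-prefixed control stood alone, 1.23 above the unprefixed control on the log2 scale, where the KD-labelled libraries differed by 0.19. Its log2 ratio between groups was 0.22 for the unprefixed pair but -0.82 for the SP-prefixed pair. IFIH1, the MDA5 sensor of long double-stranded RNA, had 22.9 and 28.5 CPM against 22.1 and 20.4, with both KD-labelled libraries below both controls (-0.26 ± 0.17). IFI16, a sensor of DNA, had 91.7 and 117 CPM against 91.6 and 98.1, and was highest in the SP-prefixed control.

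The transcription factors were all below 0 between groups, as were 8411 of the 16417 genes tested. Their median was -0.21, with 0 of 4 at an unadjusted p under 0.05 (15.5% of all genes). STAT2, a signal transducer of the type I receptor, had 44.7 and 46.7 CPM in control libraries and 42.8 and 35.6 CPM in the KD-labelled libraries (-0.23 ± 0.16). IRF9, the DNA-binding subunit of its complex, had 4.41 and 4.29 CPM against 3.71 and 2.90 (-0.40 ± 0.24, SE, n = 2 per group, adjusted p = 0.466 by edgeR and Benjamini-Hochberg). For both genes the KD-labelled libraries were below both controls, and the SP-prefixed one was the lowest. IRF7, which amplifies interferon production, was higher in both SP-prefixed libraries, with 9.96 and 16.7 CPM against 10.3 and 12.6 (prefix difference 0.53 ± 0.19). IRF1 had 67.8 and 54.5 CPM against 56.5 and 52.4. Its highest library was the unprefixed control, and the groups overlapped.

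The IFIT family encodes proteins that bind foreign RNA ends and hold back translation. In 4 of 4 genes the SP-prefixed KD-labelled library held the highest value, as it did for 26.5% of all genes. The 4 genes lie in a cluster on chromosome 10 between positions 89301955 and 89421001, all on the plus strand. IFIT1, which binds RNA lacking cap methylation, had 20.7 and 28.7 CPM in control libraries and 27.8 and 40.9 CPM in the KD-labelled libraries. The unprefixed control was the lowest, and the groups overlapped, since the SP-prefixed control was above the unprefixed KD-labelled library. The ratio to the control of the same prefix was 0.43 and 0.51 on the log2 scale, unprefixed first. The fitted difference was 0.47 ± 0.16 (SE, n = 2 per group, adjusted p = 0.179 by edgeR and Benjamini-Hochberg) and the prefix difference 0.51 ± 0.16 (adjusted p = 0.255).

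IFIT2, which binds AU-rich RNA and promotes cell death, had 29.0 and 55.0 CPM in control libraries and 36.8 and 64.4 CPM in the KD-labelled libraries. Both SP-prefixed libraries were above both unprefixed ones, by 0.92 in the controls and 0.81 in the KD-labelled libraries on the log2 scale. Its prefix difference of 0.86 ± 0.15 had the lowest adjusted p of the 36 genes in that comparison (SE, n = 2 per prefix, adjusted p = 0.0593 by edgeR and Benjamini-Hochberg). Between groups it gave 0.28 ± 0.15 (adjusted p = 0.402).

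IFIT3, which stabilises IFIT1, had 46.3 and 54.0 CPM in control libraries and 57.1 and 80.7 CPM in the KD-labelled libraries. IFIT5, which binds RNA with a phosphate end, had 21.4 and 23.5 CPM against 25.5 and 32.9. In both genes the KD-labelled libraries were above both controls. The group difference was 0.44 ± 0.15 for IFIT3 (SE, n = 2 per group, adjusted p = 0.187 by edgeR and Benjamini-Hochberg) and 0.37 ± 0.16 for IFIT5 (adjusted p = 0.315). IFIT1, IFIT2 and IFIT3 lie within the span of LIPA on the opposite strand, and the strand setting of the counting is not given in the sources used here. LIPA held 4828 and 7242 counts in the controls and 4555 and 5653 counts in the KD-labelled libraries. Whether reads of LIPA entered the IFIT counts was not tested.

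The OAS family makes the oligoadenylates that switch on RNase L, except for OASL, which lacks this activity and binds RIGI. All 4 had their highest value in the SP-prefixed control, as did 31.1% of all genes. OAS1 (chromosome 12, 112906777 to 112933222, plus strand) had 37.8 and 42.5 CPM in control libraries and 26.9 and 23.1 CPM in the KD-labelled libraries. Both KD-labelled libraries were below both controls, with log2 ratios of -0.49 and -0.88, unprefixed first. Its group difference was -0.68 ± 0.17 with a term for prefix (SE, n = 2 per group, adjusted p = 0.0741 by edgeR and Benjamini-Hochberg) and -0.68 ± 0.15 without it (adjusted p = 0.215).

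OAS3, the next gene on the chromosome, had 105 and 114 CPM in control libraries and 88.2 and 81.4 CPM in the KD-labelled libraries. The KD-labelled libraries were again below both controls, with a group difference of -0.37 ± 0.14 (SE, n = 2 per group, adjusted p = 0.248 by edgeR and Benjamini-Hochberg). OAS2, which follows OAS3, had 20.3 and 25.2 CPM against 20.6 and 22.0, and the groups overlapped (-0.09 ± 0.17). For OAS1 and OAS3 the prefix difference was -0.02 ± 0.17 and 0.01 ± 0.14.

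OASL (chromosome 12, 121019111 to 121039242, minus strand) had 10.0 and 32.2 CPM in control libraries and 16.2 and 22.6 CPM in the KD-labelled libraries. The controls were the lowest and the highest library, with the KD-labelled libraries between them. Both SP-prefixed libraries were above both unprefixed ones, by 1.68 in the controls and 0.48 in the KD-labelled libraries on the log2 scale. The prefix difference was 1.08 ± 0.26 (SE, n = 2 per prefix, adjusted p = 0.14 by edgeR and Benjamini-Hochberg) and the group difference 0.05 ± 0.26.

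**Figure D4:**
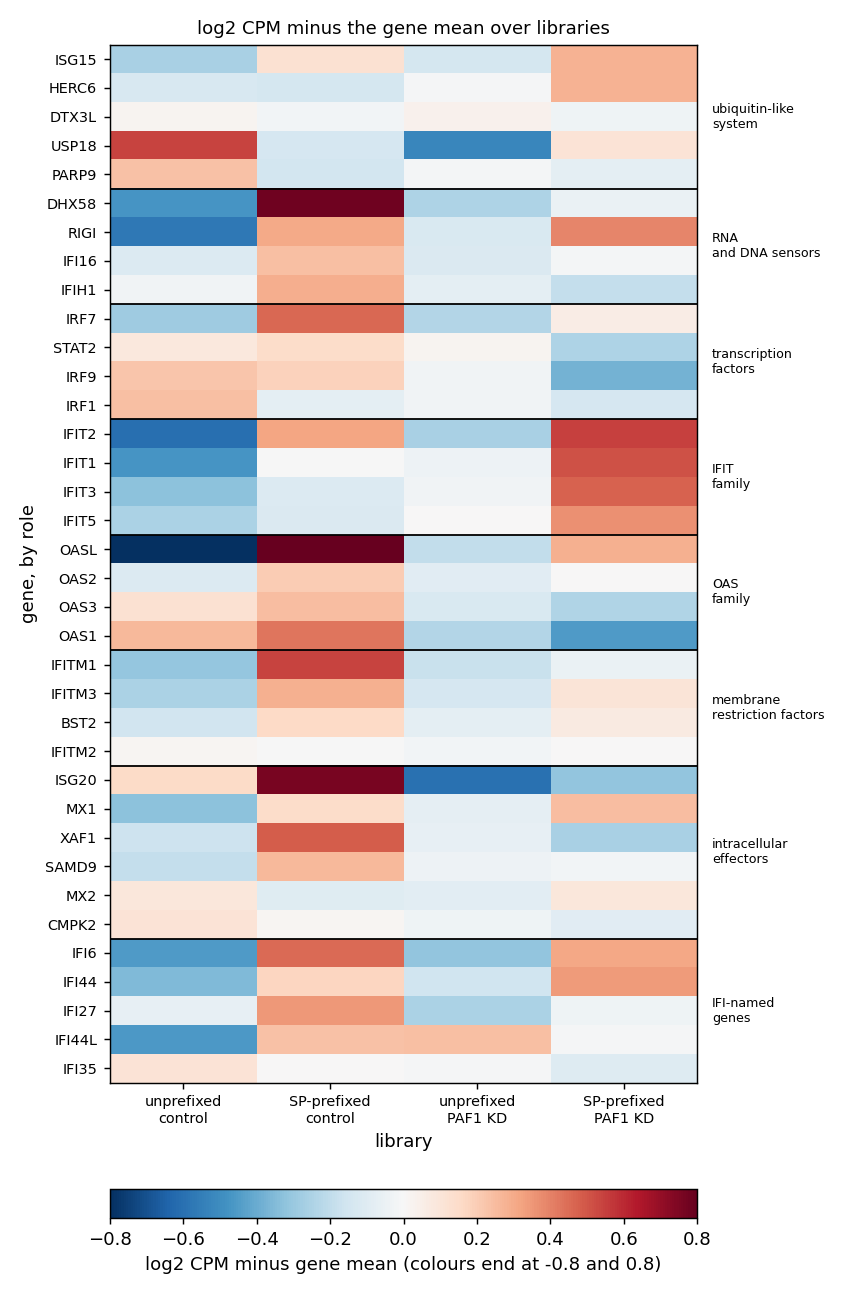
Log2 CPM of each gene minus its own mean over the 4 libraries, by role, with colours ending at -0.8 and 0.8. The IFIT genes are highest in the SP-prefixed KD-labelled library (26.5% of all genes) and the OAS genes in the SP-prefixed control (31.1%). The unprefixed control is the lowest library for 18 of the 36 genes, against 23.3% of all genes.

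Of the 4 membrane restriction factors, IFITM1 and IFITM3 were among the genes at an unadjusted p under 0.05 between prefixes (10.7% of all genes), and none was between groups (15.5%). IFITM3 had 133 and 193 CPM in control libraries and 144 and 170 CPM in the KD-labelled libraries, a prefix difference of 0.39 ± 0.14 (SE, n = 2 per prefix, adjusted p = 0.332 by edgeR and Benjamini-Hochberg). IFITM1, which acts at the cell surface, had 36.5 and 65.9 CPM against 40.1 and 43.6. Here the SP-prefixed control stood alone, and the prefix difference was 0.85 in the controls and 0.12 in the KD-labelled libraries on the log2 scale. IFITM2 lay between 28.5 and 29.3 CPM in all 4 libraries. BST2, the tetherin that holds budding virions on the cell, had 16.1 and 19.9 CPM against 16.9 and 18.8 (prefix difference 0.23 ± 0.17). The annotated spans of IFITM1 and IFITM2 overlap on the same strand, and their sequences are alike, so their counts are uncertain.

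Of the intracellular effectors, ISG20 differed most between groups. ISG20, an RNA exonuclease (chromosome 15, 88636153 to 88656483, plus strand), had 6.13 and 9.32 CPM in control libraries and 3.65 and 4.43 CPM in the KD-labelled libraries. Both KD-labelled libraries were below both controls, with log2 ratios of -0.73 and -1.06, unprefixed first. The group difference of -0.92 ± 0.22 had the lowest adjusted p of the 36 (SE, n = 2 per group, adjusted p = 0.0739 by edgeR and Benjamini-Hochberg). Without the prefix term it was -0.93 ± 0.28 (adjusted p = 0.315). Its counts were low, between 63 and 187 per library.

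MX1, a dynamin-like GTPase that traps viral nucleocapsids, had 8.11 and 11.3 CPM in control libraries and 9.67 and 12.1 CPM in the KD-labelled libraries, with both SP-prefixed libraries above both unprefixed ones (prefix difference 0.40 ± 0.19). MX2, its nuclear-pore-bound relative, had 23.0 and 20.2 CPM against 20.3 and 22.9, and overlapped on both divisions. SAMD9, which inhibits translation in poxvirus infection, had 176 and 240 CPM against 195 and 197. XAF1, a proapoptotic antagonist of XIAP, had 8.55 and 13.4 CPM against 9.15 and 8.01. In SAMD9 and XAF1 the SP-prefixed control stood above the other 3 libraries. CMPK2, a mitochondrial nucleotide kinase, had 6.70 and 6.28 CPM against 6.08 and 5.85 (-0.12 ± 0.21), and overlaps RSAD2 on the opposite strand, a gene with 24 to 38 counts per library.

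The genes of the ubiquitin-like system gave a mixed picture. ISG15 (chromosome 1, 1001138 to 1014541, plus strand) had 73.3 and 95.6 CPM in control libraries and 79.8 and 106 CPM in the KD-labelled libraries. Both SP-prefixed libraries were above both unprefixed ones, with a prefix difference of 0.40 ± 0.14 (SE, n = 2 per prefix, adjusted p = 0.311 by edgeR and Benjamini-Hochberg) and a group difference of 0.14 ± 0.14. HERC6, a HECT ubiquitin ligase and, in mouse, the ligase that attaches ISG15, had 22.0 and 21.8 CPM against 23.9 and 29.1. Its KD-labelled libraries were above both controls (0.27 ± 0.17, SE, n = 2 per group, adjusted p = 0.488 by edgeR and Benjamini-Hochberg).

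USP18, which removes ISG15 from proteins and dampens the type I receptor, had 5.33 and 3.34 CPM against 2.55 and 3.95. Its log2 ratio between groups was -1.04 for the unprefixed pair but 0.24 for the SP-prefixed pair. PARP9, an ADP-ribosyltransferase, had 75.7 and 58.2 CPM in control libraries and 63.7 and 61.0 CPM in the KD-labelled libraries. Its partner DTX3L, a ubiquitin ligase, had 107 and 104 CPM against 108 and 103. For both, the SP-prefixed libraries were below the unprefixed ones, with prefix differences of -0.22 ± 0.15 and -0.05 ± 0.13, neither past the threshold. Their first exons overlap on opposite strands, so reads there could not be assigned without the strand.

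Of the remaining IFI-named genes, IFI6 had the largest difference between prefixes. IFI6, a mitochondrial and endoplasmic reticulum protein that limits flaviviruses (chromosome 1, 27666061 to 27672218, minus strand), had 14.9 and 28.1 CPM in control libraries and 16.5 and 25.4 CPM in the KD-labelled libraries. Both SP-prefixed libraries were above both unprefixed ones, by 0.91 and 0.62 on the log2 scale. The prefix difference was 0.77 ± 0.17 (SE, n = 2 per prefix, adjusted p = 0.116 by edgeR and Benjamini-Hochberg), while the group difference was -0.01 ± 0.17.

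IFI44 had 20.7 and 29.8 CPM against 23.7 and 33.5, and a prefix difference of 0.51 ± 0.16 (SE, n = 2 per prefix, adjusted p = 0.258 by edgeR and Benjamini-Hochberg). Its neighbour IFI44L had 8.02 and 13.0 CPM against 13.0 and 11.0. The unprefixed control was the low library for both. IFI27, a mitochondrial membrane protein, had 96.5 and 128 CPM against 84.6 and 98.5 (prefix difference 0.32 ± 0.14, group difference -0.29 ± 0.14). IFI35 had 17.4 and 16.2 CPM against 16.0 and 15.0, with the KD-labelled libraries below both controls by less than 1 SE (-0.11 ± 0.17).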

How the data were processed

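Per the submitters' processing notes, the authors used FastQC, HISAT2 and featureCounts and name hg19 and GRCh38 without roles. They deposited raw counts of 60483 genes in 8 columns, 1 per lane of a library. Coordinates overlapped GENCODE release 29 on GRCh38 for 56684 of 56753 shared identifiers and for 36 of 36 members. A mirVana kit gave the RNA and a TruSeq RNA kit the libraries, per the labels' protocols. How strand was handled in counting is not given in the sources used here.

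Lanes are technical replicates per the labels and were summed. CPM used TMM-normalised library sizes, and RPKM also the deposited gene length. Genes passing filterByExpr (minimum count 10) were fitted with edgeR 4.0.16 in R 4.3.3, quasi-likelihood F test, Benjamini-Hochberg adjustment over 16417 genes at 0.05. Fits had no covariate (2 residual degrees of freedom) or group and prefix (1). SE was derived from F. Alternatives were DESeq2 1.42.0, limma-voom (limma 3.58.1), other scalings and filters, single lanes, left-out libraries and, added after seeing the data, the legacy edgeR estimate. The main edgeR fits were first tested on simulated data, and the alternatives were not. Tables and figures used Python 3.11.15, pandas 2.3.3, numpy 2.4.6, scipy 1.17.1 and matplotlib 3.10.9.

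Members, lists and fits were chosen with earlier results of these data known. All 36 members are described. From each other list up to 4 genes are named, first those past the threshold with the prefix term and then those of highest mean CPM. Some genes that this rule or the marker lists hold are not reported here.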

Additional observations from a re-analysis of the deposited data

Results flagged for a closer look

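For 3 genes the KD-labelled library was above its control in the unprefixed pair and below it in the SP-prefixed pair, in each case beyond the 95% counting interval of the ratio. With 1 library on each side of a pair the difference between pairs was not tested. On the log2 scale OASL had 0.69 (counting interval 0.43 to 0.95) in the unprefixed pair and -0.51 (-0.69 to -0.34) in the SP-prefixed pair. IFITM3 had 0.12 (0.04 to 0.20) and -0.18 (-0.25 to -0.11). SAMD9 had 0.15 (0.08 to 0.21) and -0.28 (-0.34 to -0.22). The intervals cover counting error only and are narrower for genes with more counts. The rule was applied to the 36 genes only, so its share over all genes is not known. In all 3 genes the unprefixed control was the lowest library and the SP-prefixed control the highest. By sign alone, without the intervals, the pairs were opposite for 16 of the 36 genes, against 37.7% of all genes.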

How the results depend on the processing

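No paired analysis was possible because the count columns carry no library number to block by, in the sense of pairs given by the labels. The fit with the prefix term pairs libraries by column name alone, and its calls are given beside those without it. The group fit passed 0 members, 1 under DESeq2 (OAS1), and 0 to 4 with 1 library left out, where the lone library of a group is assumed to vary like the other group. With the prefix term lane 2 alone passed 1 (OAS1, adjusted p = 0.0284, with 0.297 as the highest over 9 settings). Between prefixes 1 member passed by library size alone, under DESeq2 and in lane 1 alone (IFIT2 each time), and 3 in lane 2 alone (IFIT2, OASL and RIGI). The group median of -0.10 ranged from -0.14 to 0.11 with 1 library left out. For the prefix median of 0.23, leaving out a library left only the difference within the other group. That was 0.16 in the KD-labelled libraries and 0.32 to 0.34 in the controls. These repeat the medians within each group, scaled anew, and are no separate check. Left without the unprefixed control, the group difference of IRF1 was 0.0108, and without the SP-prefixed control those of IFITM1, DHX58 and XAF1 were 0.20, 0.33 and 0.0039, each of opposite sign to the value from all libraries. The cause was not tested. Of 1188 values of single genes under other settings, 1119 kept their sign.

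Over all genes, the 320 that passed with the prefix term became 0 without the filter on low counts and 673 in lane 2 alone. The 41 between prefixes became 0 without the filter, 17 with at least 1 CPM in 2 libraries, 109 by library size alone, 69 under DESeq2, and 94 and 288 in lanes 1 and 2. The group fit passed 0, against 258 under DESeq2, 1316 when the unprefixed control was left out and 208 when the SP-prefixed control was. Fits with both terms leave no residual degree of freedom when a library is left out, and were not run for counts.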
